A study of Mus musculus with 5 samples.

Results

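The Hippo pathway is a kinase relay that restrains growth. The kinases Stk4 (MST1) and Stk3 (MST2), with the scaffold Sav1, activate the kinases Lats1 and Lats2 together with their cofactor Mob1a. The LATS kinases phosphorylate the coactivators Yap1 (YAP) and Wwtr1 (TAZ), which keeps them out of the nucleus. Unphosphorylated YAP and TAZ enter the nucleus and act with DNA-binding TEAD proteins such as Tead1 and Tead2. In adult brain, YAP and TAZ are known mainly from astrocytes, ependyma and vessel cells rather than from neurons.

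The 10 genes listed for this account were these kinases, their scaffold and cofactor, the coactivators and the TEAD factors. Probes were chosen by the platform's gene symbol, current or older, and 8 of the 10 genes matched, with 11 probes, among 17710 named genes on the array. Mob1a was found through the older symbol MOBKL1B. Stk3 and Yap1 matched no named probe and are not analysed here. The platform symbols MST1 and TAZ are also older names of Stk4 and Wwtr1, but they are current names of other mouse genes in the RefSeq table, so their 2 probes were not counted. The list was built around 1 probe of Lats2 that had stood out in earlier results of these data. Its difference between the groups is therefore given as a description. The fit over all probes includes it, and a call there would be no independent support.

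A single-colour oligonucleotide array was used to measure RNA from the striatum of 5 FVB males, each about 12 months old. Every mouse had the same Huntington's disease (HD) transgene: exon 1 of human HTT, with 84 CAG repeats, joined to GFP and driven by a human ubiquitin promoter. The 3 HD_miR196a mice came from crosses with mice that express a miR-196a precursor, also under a human ubiquitin promoter, and the 2 HD mice did not carry this second transgene. Mice without the HD transgene, or with the miR-196a transgene alone, are not analysed here, and the number of founder lines is not stated. The comparison asks how the transcripts of the pathway differ when miR-196a is overexpressed beside mutant HTT.

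The sequence of the overexpressed microRNA is shown because miR-196a overexpression is the difference in genotype that the labels state between the groups. The mature sequence is the same from both of its mouse genes, at chr11:96265187-96265208 and chr15:102973365-102973386 (both on the plus strand, GRCm38.p6, sequences from RefSeq). Of 1738 mature mouse microRNA entries, 3 share its seed, bases 2 to 8, given in capitals, and they hold 2 different sequences.
miR-196a-5p: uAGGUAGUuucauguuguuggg
miR-196b-5p: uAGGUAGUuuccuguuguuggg
Whether transcripts of the pathway hold sites for this seed was not analysed here, nor was the amount of miR-196a measured.

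The deposited values are linear intensities with background subtracted, 1 per probe and mouse. Array medians differed between mice, so the arrays were quantile-normalized, values below 1 were set to 1, and log2 was taken. All log2 levels below are on that scale, and all differences are HD_miR196a minus HD. Background was gauged on 544 olfactory receptor probes, whose genes are largely inactive in striatum. On the log2 scale their median was 5.03 and their 95th percentile 8.27. Striatal identity was clear in the enkephalin precursor Penk, at 15.12 ± 0.11 (SD, n = 3) in HD_miR196a and 14.74 ± 0.02 (SD, n = 2) in HD mice. The Drd2 probe, for a receptor of the same tissue, was near the floor in both groups, at 0.86 ± 1.06 and 0.89 ± 1.06. The authors combined 2 technical repeats per mouse, so the mouse is the replicate.

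Lats2 encodes the LATS kinase that phosphorylates YAP and TAZ alongside Lats1, and it is itself a known transcriptional target of YAP. Its first probe had deposited intensities of 1.00, 2.52 and -0.99 in HD_miR196a mice 1, 2 and 3, and of 648 and 1150.5 in HD mice 1 and 2. After normalization these were 0.13, 1.38 and 0.00 on the log2 scale against 9.21 and 10.03. All 3 HD_miR196a mice were thus at or near the floor, below the median of the olfactory receptor probes, and both HD mice were above their 95th percentile. The group means were 0.50 ± 0.76 (SD, n = 3) and 9.62 ± 0.58 (SD, n = 2). The fitted difference, -9.12 ± 0.52 (SE), was the most negative of the 26423 probes, and its size depends on the floor. Set against the 95th percentile of olfactory receptor probes in place of the unmeasured HD_miR196a level, the signal was at least 2.55-fold higher in HD mice. In whole tissue, fewer cells of a type and less RNA per cell cannot be told apart. Whether the probe lost its signal for a technical reason was not tested. The bright probe of the astrocyte gene Slc1a3 also lacked signal, but in 1 mouse only. Its deposited intensity was -0.44 for HD mouse 1, while the remaining mice had 6458 to 12637. The resulting Slc1a3 difference, 7.08 ± 3.74 (SE), was the most positive of all probes.

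The other Lats2 probe did not show this pattern. Its deposited intensities were 7.99, 10.1 and 20.1 in the HD_miR196a mice and 13.5 and 8.94 in the HD mice, or 3.05, 3.38 and 4.43 against 3.70 and 3.00 on the log2 scale. Every value was below the median of the olfactory receptor probes, and the groups overlapped. The difference was 0.27 ± 0.48 (SE), with a 95% interval from -0.99 to 1.54. So the Lats2 pattern rests on 1 of 2 probes, and the other gave no signal above background in any mouse, HD mice included. The sources used here do not say which Lats2 transcripts each probe binds.

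**Figure D1:**
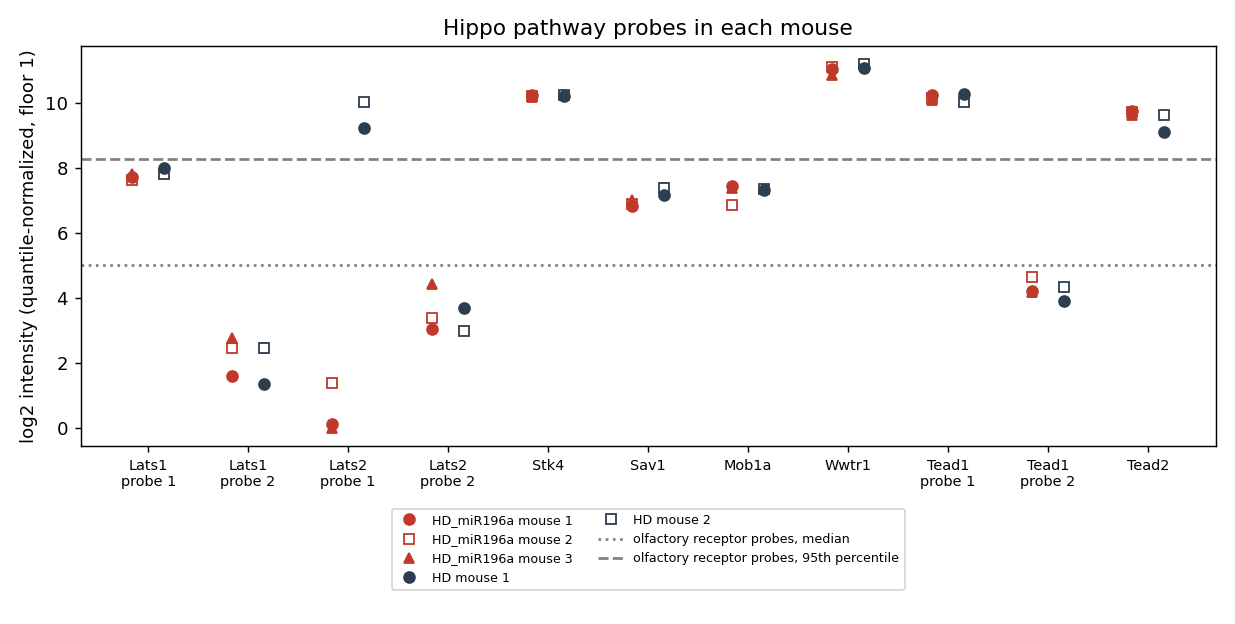
Log2 intensity (quantile-normalized, floor at 1) of the 11 probes of 8 Hippo pathway genes in each of 3 HD_miR196a mice (red) and 2 HD mice (dark), with the median (dotted, 5.03) and 95th percentile (dashed, 8.27) of the olfactory receptor probes. The first Lats2 probe lies between 0.00 and 1.38 in the HD_miR196a mice and at 9.21 and 10.03 in the HD mice, while both groups lie close together at the other 10 probes.

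A switch of this kind was rare on the array. Probes below the olfactory receptor median in all 3 HD_miR196a mice and above the 95th percentile in both HD mice numbered 2 of 26423 (0.00757%), and the reverse pattern was met by 0 probes (0.0%). These limits were set after the Lats2 values were seen. The second probe was that of Acot8, a peroxisomal acyl-CoA thioesterase, with deposited intensities of 10.5, 5.48 and 5.45 in the HD_miR196a mice and 1012.4 and 829.9 in the HD mice.

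Among probes with a gene name, Acot8 was also the one whose values over the 5 mice lay nearest to those of the first Lats2 probe. Nearness was measured as the Euclidean distance of log2 values after each probe was centred on its mean. Probes without a gene name were not ranked. That distance was 3.02 for Acot8. Next came Dapp1, an adaptor of B-cell receptor signalling, at 4.23, and Max, the dimerization partner of Myc, at 7.09. The log2 levels of Dapp1 were 1.61, 0.00 and 0.00 against 5.76 and 6.77, so its HD level stayed within the range of the olfactory receptor probes. Max was spread within HD_miR196a, at 3.21, 8.03 and 5.90, against 8.29 and 9.37. Gm9376 and Proz, at distances of 7.80 and 7.88, had lower levels in all mice, at most 5.30. The other 10 probes of the pathway lay at distances between 9.67 (Sav1) and 10.5 (the second Lats2 probe). Stk4, nearly level across the mice, lay at 10.04, so a probe with little change lies about this far away. The 5 probes above were picked as the nearest, so their shorter distances are no test of whether the pathway follows Lats2.

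**Figure D2:**
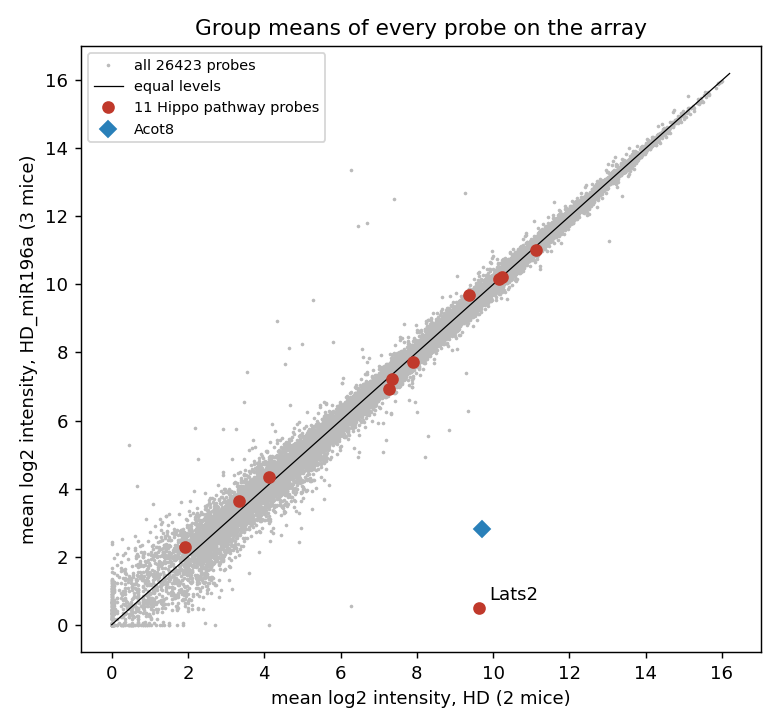
Mean log2 intensity of each of 26423 probes in 2 HD mice (x axis) against 3 HD_miR196a mice (y axis), with the line of equal levels, the 11 Hippo pathway probes in red and Acot8 in blue. The first Lats2 probe, at 9.62 and 0.50, and Acot8, at 9.71 and 2.81, lie far below the line, and the other 10 pathway probes lie close to it.

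The partners of Lats2 were then read for a shift of the same direction. Over the whole array, 0 of 26423 probes (0.0%) passed limma at a Benjamini-Hochberg adjusted p under 0.05, and 1099 (4.16%) had an unadjusted p under 0.05. Of the 9 partner probes, from 7 genes, 0 were called, and 1 had an unadjusted p under 0.05. By sign, 4 were higher and 5 lower in HD_miR196a mice, and their median difference was -0.01, against -0.00 over all probes with quartiles of -0.12 and 0.12. Directions this small depend on the scaling. Median centring gave 3 higher and 6 lower, and no scaling gave 2 higher and 7 lower. Without scaling, all probes had a median of -0.20. The groups did not overlap at 1 of the 9, where this held at 20.3% of all probes. Partner differences ranged from -0.36 to 0.37. Their 95% intervals reached from -0.91 to 1.64 at the widest, and from -0.43 to 0.80 for the 4 probes with means above the olfactory receptor 95th percentile. No partner followed the first Lats2 probe in size.

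Stk4, the upstream kinase that phosphorylates the LATS kinases, had the smallest standard error of the 11 probes. Its log2 levels were 10.25, 10.22 and 10.17 in HD_miR196a mice and 10.21 and 10.24 in HD mice. The groups overlapped, and the difference was -0.01 ± 0.09 (SE), with a 95% interval from -0.24 to 0.21 (limma adjusted p = 0.998).

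Sav1, the WW-domain scaffold that links the MST and LATS kinases, was at 6.83, 6.89 and 7.02 in HD_miR196a mice and at 7.17 and 7.38 in HD mice. It was the partner probe at which the groups did not overlap, and all 5 values lay within the range of the olfactory receptor probes. The difference was -0.36 ± 0.12 (SE), with an unadjusted p = 0.0316 and an adjusted p = 0.979 over all probes in limma, so it did not pass. It was lower in HD_miR196a mice with each mouse left out in turn, at -0.46 to -0.26.

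Mob1a, the cofactor that binds and activates the LATS kinases, was at 7.44, 6.85 and 7.37 against 7.33 and 7.35. HD_miR196a mouse 2 was the low value, and the other 4 mice lay between 7.33 and 7.44. The difference was -0.12 ± 0.21 (SE, limma adjusted p = 0.987), and it was 0.07 without that mouse.

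Lats1, the other LATS kinase, is the closest relative of Lats2. Its first probe read 7.72, 7.64 and 7.81 in HD_miR196a mice and 7.98 and 7.80 in HD mice. HD mouse 1 was the highest, and HD mouse 2 fell just within the range of the HD_miR196a mice. The difference was -0.17 ± 0.11 (SE), with a 95% interval from -0.46 to 0.12 (limma adjusted p = 0.979). The second Lats1 probe was below the olfactory receptor median in all mice, between 1.37 and 2.77, and differed by 0.37 ± 0.49 (SE). The groups thus overlapped at both Lats1 probes.

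Wwtr1, the coactivator TAZ, was well above background in every mouse, at 11.04, 11.09 and 10.87 in HD_miR196a and 11.08 and 11.19 in HD mice. HD_miR196a mouse 3 was the lowest and HD mouse 2 the highest, and the groups overlapped. The difference was -0.14 ± 0.11 (SE), with a 95% interval from -0.43 to 0.16 (limma adjusted p = 0.979).

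The TEAD factors carry YAP and TAZ to DNA. The first probe of Tead1 read 10.23, 10.14 and 10.09 in HD_miR196a mice and 10.28 and 10.01 in HD mice. Both HD mice lay outside the HD_miR196a range, 1 above and 1 below, and the difference was 0.01 ± 0.12 (SE, limma adjusted p = 1.0). The second Tead1 probe was between 3.90 and 4.64, below the olfactory receptor median, and differed by 0.22 ± 0.22 (SE). Tead2 read 9.75, 9.72 and 9.62 against 9.10 and 9.63, with HD mouse 1 as the low value. Its difference of 0.33 ± 0.18 (SE, limma adjusted p = 0.979) became 0.06 without HD mouse 1 and 0.59 without HD mouse 2.

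**Figure D3:**
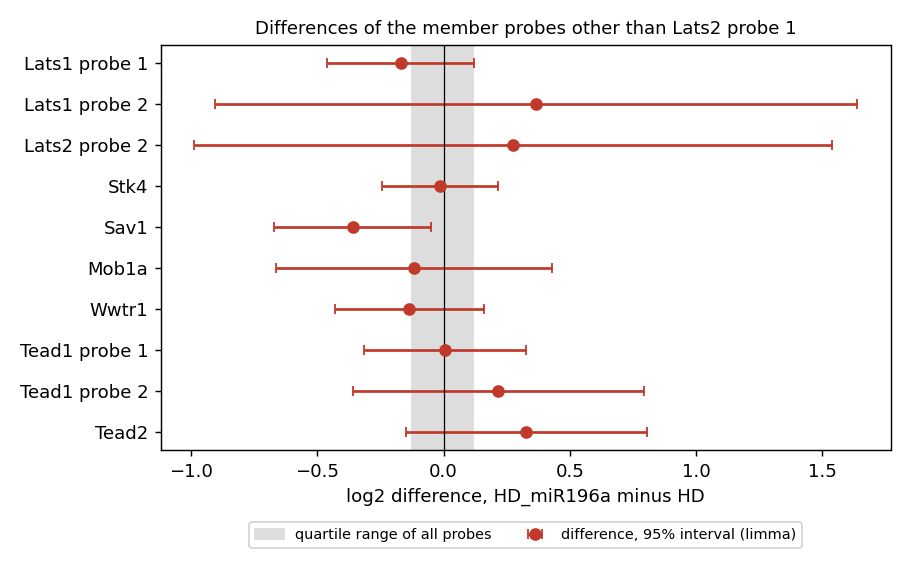
Log2 difference, HD_miR196a minus HD, with its 95% interval from limma for the 9 partner probes and the second Lats2 probe, over the range between the quartiles of all 26423 probes (grey, -0.12 to 0.12). The first Lats2 probe, at -9.12, is off this scale and not drawn. Sav1, at -0.36, is the 1 probe whose interval leaves out 0, and it did not pass after adjustment.

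The rest of the pathway was read from lists of other genes. Relatives of these genes (Mob1b, Tead3, Tead4, the kinases Stk38 and Stk38l, and the Vgll cofactors of TEAD) gave 9 probes, with 4 higher, 5 lower, 0 called and a median difference of -0.00. Tead3, another TEAD factor, differed by 0.21 ± 0.14 (SE), Stk38l, a kinase of the LATS family, by -0.16 ± 0.14 and Vgll1 by -0.48 ± 0.45. The Tead3 and Vgll1 levels were within the range of the olfactory receptor probes. Mob1b, which can stand in for Mob1a, read 5.38 ± 0.24 (SD, n = 3) and 5.43 ± 0.39 (SD, n = 2).

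Upstream regulators, such as Nf2 (merlin), the TAO and MAP4K kinases, FAT cadherins and angiomotins, gave 33 probes of 30 genes, with 12 higher, 21 lower and 0 called. Their median difference was -0.03, and the groups did not overlap at 21.2% of them, near the 20.3% of all probes. Taok3, a TAO kinase that can activate the MST kinases, read 8.19, 8.16 and 8.30 in HD_miR196a mice and 8.51 and 8.71 in HD mice. The values 8.19 and 8.16 lay below the olfactory receptor 95th percentile of 8.27, so this probe was close to the background limit. All 3 HD_miR196a mice lay below both HD mice, by a difference of -0.39 ± 0.11 (SE) that did not pass over all probes (limma adjusted p = 0.979). Ajuba, a LIM protein that inhibits LATS, differed by -0.82 ± 0.37. Its log2 levels were 3.84, 3.68 and 4.48 against 4.39 and 5.26, all within the range of the olfactory receptor probes, and the groups overlapped. Tnik, a kinase of the MAP4K family, differed by 0.46 ± 0.20 on a probe below that median and by -0.28 ± 0.19 on its bright probe. Nf2 itself read 9.68 ± 0.02 (SD, n = 3) and 9.69 ± 0.02 (SD, n = 2).

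The STRIPAK complex joins the phosphatase PP2A to the MST kinases and switches them off. Its 16 probes of 14 genes had 7 higher, 9 lower and 0 called, with a median difference of -0.04. Slmap, the subunit that recruits STRIPAK to the MST kinases, differed by 0.20 ± 0.13 (SE), and the PP2A scaffold Ppp2r1a by -0.11 ± 0.09. The kinase Stk25 differed by -0.26 ± 0.10 on a dim probe and by -0.04 ± 0.15 on its bright one.

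Target genes of YAP and TAZ are the usual readout of the pathway, and Lats2, a target too, was left out of their list. Their 24 probes of 19 genes had 11 higher, 13 lower and 0 called, with a median difference of -0.07, and the groups did not overlap at 16.7% of them. By scaling, target probes split into 9 higher and 15 lower with median centring and 1 and 23 without scaling, and the STRIPAK probes into 4 and 12 or 0 and 16. For the upstream regulators these splits were 10 and 23 or 2 and 31, and for the relatives 3 and 6 or 1 and 8. Without scaling the list medians were -0.28 to -0.20, around the shift of all probes. Over these 4 lists, 1 of 82 probes, that of Taok3, had an unadjusted p under 0.05 in limma, against 4.16% of all probes. Tgfb2, a growth factor, read 9.36 ± 0.04 (SD, n = 3) and 9.60 ± 0.09 (SD, n = 2) on its first-ranked probe, a difference of -0.25 ± 0.10 (SE), and differed by 0.07 ± 0.09 on another. Igfbp3, which binds insulin-like growth factors, differed by -0.24 ± 0.11 at a mean level below the olfactory receptor 95th percentile, and Arhgef17 by -0.41 ± 0.19. The limma adjusted p was 0.979 for each of these. Amotl2, an angiomotin induced by YAP, differed by 0.07 ± 0.16, and the receptor kinase Axl by 0.00 ± 0.09 on its brighter probe.

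Ccn2 (CTGF), the most used YAP target, varied more between mice than between groups. Its log2 levels were 6.18, 9.56 and 8.99 in HD_miR196a mice 1, 2 and 3, and 7.58 and 9.78 in HD mice 1 and 2. Mouse 1 of each group was low, and the difference was -0.44 ± 1.26 (SE). The mean log2 level of 12 probes of cortical projection neuron genes was low in the same mice, at 8.17 in HD_miR196a mouse 1 and 8.52 in HD mouse 1, against 9.75 to 10.24 in the other mice. Ccn2 is also known from neurons of the deepest cortical layer, and the part of tissue composition in its values was not tested.

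Cell type markers were read in the same mice, since Lats2, TAZ and the TEAD factors are not neuron genes alone. For each of the 8 marker lists the mean log2 level overlapped between the groups. Astrocyte markers had 10 of 16 probes higher in HD_miR196a mice with a median difference of 0.02, and list means of 10.94 to 10.98 against 10.10 and 10.97. The low HD mouse 1 had the probe of the glutamate transporter Slc1a3 at the floor, with 12.57 to 13.72 in the other mice. Endothelium and pericyte markers had 10 of 17 probes higher with a median of 0.03, and list means of 7.89 to 8.00 against 7.86 and 7.92. Ependyma and choroid plexus markers had 5 of 11 probes higher, with a median of -0.00 and an upper quartile of 0.72. Both probes of Ccdc153, a gene of motile cilia, were higher in all 3 HD_miR196a mice, by 1.08 ± 0.22 and 1.12 ± 0.18 (SE), and neither passed over all probes (limma adjusted p = 0.979 and 0.824). The other cilia genes of this list did not share this. Foxj1 differed by 0.65 ± 0.34 with overlapping groups, Rsph1 by -0.00, Tmem212 by 0.01 and Dnah11 by -0.43. The choroid plexus gene Ttr, at 0.80 ± 1.18, was high in HD_miR196a mouse 1 only, at 10.64 against 7.09 to 7.70 in the other mice. Microglia markers had 4 of 8 probes higher with a median of -0.00. The groups did not overlap at 4 of these 8 probes, 2 higher and 2 lower, or 50% against 20.3% of all probes. Among them Tmem119 differed by 0.32 ± 0.11 and the complement gene C1qa by -0.30 ± 0.14. Oligodendrocyte markers were higher at 12 of 12 probes with a median of 0.28, and medium spiny neuron markers at 14 of 18 with a median of 0.31, with groups that did not overlap at 25% and 50% of the probes. In limma 0 probes of any marker list were called. An unadjusted limma p under 0.05 was met by 7 of 18 medium spiny neuron probes, against 4.16% of all probes. It was met by 2 of 17 endothelium and pericyte probes and 2 of 11 ependyma and choroid plexus probes. The oligodendrocyte list had 1 of 12, the microglia list 1 of 8 and the other lists 0. With median centring, 12 of 12 oligodendrocyte probes were higher, with a median of 0.21, and 13 of 18 medium spiny neuron probes, with a median of 0.25. Without scaling, where the median of all probes was -0.20, higher oligodendrocyte probes became 7 of 12, with a median of 0.04. Higher medium spiny neuron probes became 10 of 18, with a median of 0.08, and the astrocyte median was -0.19. Leptomeningeal fibroblast markers had a median of 0.19 and cortical neuron markers one of 0.03. None of these lists held a probe at the floor in all 5 mice, which does not bear on a floor in the HD_miR196a mice alone. The part of cell composition in the Lats2 values was not tested.

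Sequences before the gene starts were searched for the TEAD core motif GGAATG, or CATTCC on the other strand, because Lats2 is a known YAP target. The other listed genes were searched in the same way. The table holds windows of 300 bases, 250 before and 50 after an annotated start, for 8 of the 10 genes, with none for Stk3 and Tead1. A match was found in 5 of the 8 genes, where 16.58% of all 27025 genes hold one. By window it was found in 6 of their 10, where 14.66% of all 32851 windows hold one. The matches are printed with 10 bases on each side, 5′ to 3′ on the gene's strand, with the motif in capitals (RefSeq, GRCm38.p6).
Lats2: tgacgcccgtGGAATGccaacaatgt
Wwtr1: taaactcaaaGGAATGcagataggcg
Yap1: ggagtctgcaGGAATGtagcgacgcg
Sav1: gctttcccagCATTCCcagcggcgcg
Mob1a: gccagaatagCATTCCtttaggagaa
The Lats2 match, at chr14:57746104-57746129 on the minus strand, begins at base 5 after 1 of its 2 annotated starts, and the window of the other start holds none. The Wwtr1 match, at chr3:57576031-57576056 on the minus strand, serves both annotated starts. Those of Yap1 (chr9:8004722-8004747, minus strand), Sav1 (chr12:69987093-69987118, minus strand) and Mob1a (chr6:83325820-83325845, plus strand) lie before the start. Lats1, Stk4 and Tead2 had no match in these windows. A match is a description of the letters and no measure of binding. Of the genes with one, Lats2 was lower in HD_miR196a mice on its first probe and differed by 0.27 on its second. Wwtr1, Sav1 and Mob1a differed by -0.14, -0.36 and -0.12 without passing the test, and Yap1 was not analysed for its level. Of the genes without one, Lats1 differed by -0.17 and, on its second probe, 0.37, Stk4 by -0.01 and Tead2 by 0.33. Whether a match goes with a difference was not tested.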

How the data were processed

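The authors' deposited values are linear intensities from Cy5-labelled amplified RNA of striatum, 1 column for each of 5 mice, with 2 technical repeats combined per the labels. Some values lie below 0, so background had been subtracted. The sources used here give no scanner, software, scaling or detection calls. Groups and mouse numbers come from the sample titles. Of 26423 probes, 20377 had a platform symbol. Of these, 18213 matched a current RefSeq symbol (GRCm38.p6), 2126 matched 1 gene by synonym, and 38 were ambiguous and stayed unnamed. Intensities were quantile-normalized, floored at 1 and log2-transformed, then fitted in R 4.3.3 by lmFit and eBayes of limma 3.58.1 (no block, 3 residual and 1.75 prior degrees of freedom). Tests were two-sided, with Benjamini-Hochberg adjustment over all probes at 0.05. The number of arrays limits the precision. With 3 and 2 mice, 10 splits exist and an exact permutation p is at least 0.1, so none is given. The members, lists and tests were chosen with earlier results of these data known. Named were all probes of the members, the 3 probes of smallest p in each pathway list, and the 5 named probes nearest to Lats2. Vgll1, Nf2, Mob1b, Amotl2, Axl, Ccn2, the second probes of genes and Slc1a3 were partly or wholly chosen after their values were seen. The marker genes Penk, Drd2, Ccdc153, Tmem119 and C1qa were not named by these rules either, nor were Foxj1, Rsph1, Tmem212, Dnah11 and Ttr. In limma, Ccdc153 and Tmem119 had the smallest p of their lists, and C1qa the next smallest among microglia markers.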

Additional observations from a re-analysis of the deposited data

How the results depend on the processing

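The first Lats2 probe was lower in HD_miR196a mice under every alternative that kept it, from -9.56 to -8.71 with 1 mouse left out at a time. Its fitted size followed the floor, at -4.60 with values floored at the median of olfactory receptor probes and -1.35 at their 95th percentile. Among the brightest 50% of probes it was left out. It was the 1 pathway probe called with eBayes trend and robust settings, as 1 of 3 over the array. No other setting called it, and its adjusted p in the main limma fit was 0.112. Since it was chosen for such a result, the call is no independent support. The count of called probes, 0, became 2 and 3 with these floors, and 0 to 3 with 1 mouse left out (3 without HD mouse 1, 3 without HD mouse 2). The partner median of -0.01 became -0.25 without scaling, where the median of all probes shifted to -0.20. Of 126 values under alternatives of the other 10 pathway probes, 112 kept their sign and 14 changed it, with 0 of these 126 called. The trend and robust settings, the brightest 50% and both floors left the differences of the probes they kept as in the main fit. There the sign could not change, so part of the 112 says nothing about stability. Sign changes came without scaling at Tead1 (-0.22 and, second probe, -0.027), with median centring at Tead1 (-0.053), and with 1 mouse left out at the second probes of Lats1 (-0.18 to 0.91), Lats2 (-0.13 to 0.63) and Tead1 (-0.011 to 0.44), at Tead1 (-0.13 to 0.14), Mob1a (-0.23 to 0.068) and Stk4 (-0.033 to 0.0066). The groups share only 2 mouse numbers, and nothing in the labels pairs them (correlation of deviations across probes 0.236 and 0.17). With the mouse number as a replicate block 0 probes were called and 2020 had an unadjusted p under 0.05, against 1099. Mouse number 3 exists only in HD_miR196a, so the block takes that mouse out of the comparison. The block's differences therefore equal those with HD_miR196a mouse 3 left out. Under that block the first Lats2 probe differed by -8.87. The signs of the second Lats2 probe (-0.13) and of Stk4 (0.0066) changed, as without that mouse, so the 14 count these changes under both settings. The floor at the 95th percentile and the fit without mouse 1 of each group were added after seeing the data. A fit with 1 HD mouse assumes that it varies like the other group. Low signal limits 7 of the 11 pathway probes.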
